A study of Rattus norvegicus with 2 samples.

Results

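Satellite cells that were neither dividing nor expressing Myog made up 512 of the 21154 barcodes that passed the cell filters in single-cell libraries of rat-mouse chimera and Sprague-Dawley (SD) rat muscle. They were chosen by their own transcripts: a barcode had to hold at least 2 of the 7 genes Pax7, Myf5, Myod1, Cdh15, Megf10, Asb5 and Fgfr4, at most 1 UMI (1 captured RNA molecule) of Myog, and at most 1 of the 5 mitotic genes Top2a, Mki67, Cdk1, Ube2c and Nusap1. A barcode with any UMI of Ptprc, Pecam1 or Pdgfra, which mark leukocytes, endothelial cells and fibroblasts, was left out. The levels of these 16 genes therefore describe the rule and are given without any test.

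The samples were dissociated skeletal muscle, pooled from the whole body, of 1 SD rat and 1 rat-mouse chimera. The SD rat carried no mouse cells. The chimera grew from an SD rat morula injected with mouse iPSCs that carried an edited Dmd mdx allele, a mutated dystrophin gene corrected by genome editing, and the Pax7-nGFP reporter, which drives nuclear green fluorescent protein from Pax7 regulatory sequence. Its rat cells are thus unedited SD rat cells, and its mouse cells all descend from the injected iPSCs. Neither age nor sex was given in the labels. Both tissues were digested with collagenase and sorted only for a viability dye, and both libraries were made with the 10x Genomics 3′ chemistry, which counts the 3′ ends of polyadenylated RNA. The chimera barcodes were split by species: rat cells had at most 20% of their UMIs on mouse genes, and mouse cells at least 80%. This gave 254 satellite cells of the SD rat, 229 rat satellite cells of the chimera and 29 mouse satellite cells of the chimera. With 1 animal per library there was no replicate, so no difference between populations could be tested, and 2-fold serves below only as a fixed mark of size.

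Satellite cells are the resident stem cells of skeletal muscle and lie between the myofibre membrane and its basement membrane. The transcription factor Pax7 marks them, Notch signalling keeps them quiescent, and after injury they divide, turn on Myod1 and then Myog, and fuse into myofibres.

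Satellite cells took 2.83% (95% Clopper-Pearson interval 2.50 to 3.19) of the 8980 SD rat cells, 2.70% (2.37 to 3.07) of the 8477 rat cells of the chimera and 1.56% (1.05 to 2.23) of its 1861 mouse cells. All intervals here cover counting error in 1 library and not differences between animals. The mouse share of the chimera satellite cells was 11.2% (7.66 to 15.7), or 29 of 258 cells. This lay below the mouse share of endothelial cells, 61.0% (58.5 to 63.4), and above that of fibroblasts, 5.04% (4.15 to 6.06). Over all rat and mouse cells of the chimera the mouse share was 18.0% (17.3 to 18.8). In the Myog-positive and cycling cells that met the same marker rule it was 9.71% (4.75 to 17.1) and 4.92% (1.03 to 13.7). A further 18 chimera barcodes met the marker rule but held UMIs of both species between the limits, and they entered neither population.

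Median depth was 5925 UMIs per satellite cell in the SD rat, 7524 in the chimera rat cells and 9010 in the chimera mouse cells. Median gene numbers were 1932.5, 2209 and 2557. The chimera library held 118872850 UMIs in 13299 barcodes and the SD rat library 70957559 in 10117, and 43 barcode sequences occurred in both. Scrublet, which simulates doublets, marked 3 of the SD rat satellite cells, 2 of the chimera rat ones and none of the 29 mouse ones, and these were kept in the main values. The SD rat reads had been mapped to rat genes alone and the chimera reads to rat and mouse genes together, and the chimera rat satellite cells carried a median of 10.4% of their UMIs on mouse genes. For every gene the rat and mouse counts of the same symbol were added, and levels are counts per 1000000 UMIs (CPM) over the 16235 symbols shared by both annotations.

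The rule's limits cut through continuous distributions. Of cells that met every other condition, 326 in the SD rat, 243 in the chimera rat and 18 in the chimera mouse population had exactly 1 of the 7 markers and stayed outside, while 78, 57 and 5 had exactly 2 and were inside. Exactly 1 UMI of Myog was found in 11, 13 and 3 of the included cells, and exactly 2 in 5, 9 and 0 of the excluded ones. Likewise 19, 26 and 7 included cells had exactly 1 of the mitotic genes, and 4, 11 and 1 excluded cells had exactly 2. On the species axis, 8 rat satellite cells of the chimera had 15 to 20% of UMIs on mouse genes, just inside, and 8 cells had 20 to 25%, just outside. The mouse satellite cells stood farther from their limit, with 24 of 29 at 95% or more.

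Pax7, the paired-box factor that defines the lineage, was detected in 53.5% of SD rat, 59.8% of chimera rat and 75.9% of chimera mouse satellite cells. After each cell was thinned to 2000 UMIs, which left out 15, 3 and 1 shallower cells, these shares were 23.4%, 26.1% and 42.9%. In endothelial cells of the same populations, with median depths of 4180, 5824 and 6758 UMIs, the unthinned Pax7 shares were 0.978%, 1.32% and 0%, the last with 0 of 949 cells, where a share of cells with a UMI of up to 0.316% is allowed. Such limits concern cells with a UMI and not cells that express the gene. The Pax7 level was 188 CPM (165 to 214), 205 CPM (181 to 230) and 480 CPM (385 to 590). Without thinning, Pax7 was found in most satellite cells of all 3 populations and was rare in endothelial cells. Pax7 was a marker of the rule, so its share in satellite cells describes the rule in part.

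Myf5, an early myogenic regulatory factor, lay at 193, 215 and 183 CPM in the SD rat, chimera rat and chimera mouse satellite cells, and Myod1, the factor of activated cells, at 128, 103 and 172 CPM. Myf5 was detected in 50.0%, 49.3% and 41.4% of cells (28.9%, 26.1% and 21.4% after thinning), and Myod1 in 28.0%, 29.3% and 41.4% (11.7%, 14.6% and 21.4%). Cells with both Pax7 and Myf5 made up 26.4%, 34.9% and 41.4%, and every mouse satellite cell with Myf5 also had Pax7. Cdh15, the gene of M-cadherin, which joins the satellite cell to its fibre, was at 316 CPM (286 to 349) in the SD rat, 247 CPM (221 to 274) in the chimera rat and 75.5 CPM (41.2 to 127) in the chimera mouse cells. It was detected in 71.7%, 72.9% and 31.0% of cells, and in 41.8%, 29.6% and 10.7% after thinning. Megf10, a transmembrane receptor of satellite cells, was at 51.4, 78.1 and 108 CPM. Asb5, a substrate adaptor of ubiquitin ligases, was at 299, 354 and 420 CPM. Fgfr4, a fibroblast growth factor receptor, was at 110, 110 and 189 CPM. No marker of the 7 was detected in more than 4.67% of the endothelial cells or fibroblasts of any population.

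**Figure D1:**
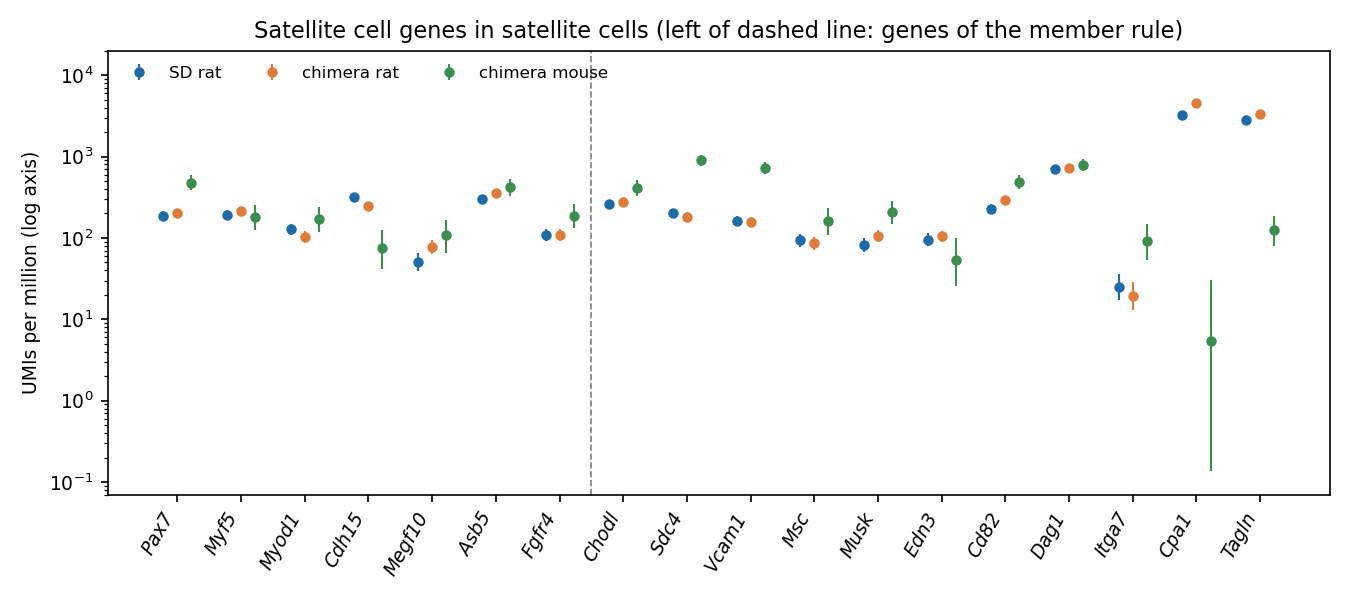
Levels (CPM, log axis) of 18 satellite cell genes in SD rat, chimera rat and chimera mouse satellite cells, with 95% Poisson intervals as bars and values below 0.1 CPM drawn at 0.1. The 7 genes left of the dashed line were part of the rule; the SD rat and chimera rat points lie close together, while the mouse points stand apart for Pax7 (480 CPM), Cdh15 (75.5 CPM), Sdc4 (905 CPM) and Vcam1 (728 CPM).

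Genes of the lineage that the rule had not used were also present. Chodl, which encodes the membrane lectin chondrolectin, was detected in 57.9%, 59.8% and 58.6% of SD rat, chimera rat and chimera mouse satellite cells. Its levels were 264, 278 and 415 CPM. Des, the intermediate filament of muscle cells, was at 559, 622 and 399 CPM, Cd82, a tetraspanin, at 230, 290 and 490 CPM, and Peg3, an imprinted zinc finger gene, at 290, 281 and 350 CPM. Msc, a bHLH repressor of myogenic factors, was at 93.2, 86.0 and 162 CPM, and Musk, the kinase that organises the neuromuscular synapse, at 83.0, 106 and 210 CPM. Met, the receptor for hepatocyte growth factor, was at 138, 119 and 124 CPM. Calcr, the calcitonin receptor of quiescent cells, was low at 52.2, 21.7 and 53.9 CPM, and Pax3, the paralog of Pax7, at 13.4, 24.6 and 5.39 CPM. Cd34, a surface protein of quiescent mouse satellite cells, was at 4.74, 5.06 and 26.9 CPM, against 109, 101 and 510 CPM in the endothelial cells of the same populations.

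Genes of the Notch pathway and of quiescence were found at low to moderate levels. The receptors Notch1 and Notch2 lay at 67.2, 62.9 and 119 CPM and at 94.0, 86.8 and 64.7 CPM in the SD rat, chimera rat and chimera mouse satellite cells. Rbpj, the DNA-binding partner of Notch, was at 205, 180 and 172 CPM. The Notch target Heyl was at 65.6, 57.1 and 102 CPM, and the target Hes1 at 176, 93.3 and 140 CPM. Spry1, an inhibitor of growth factor signalling, was at 147, 147 and 70.1 CPM. The cell cycle inhibitors Cdkn1b and Cdkn1c lay at 107, 95.4 and 108 CPM and at 239, 240 and 350 CPM. Col5a3, a collagen V chain of satellite cells and fibroblasts, was detected in 57.5%, 44.5% and 41.4% of cells.

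Genes of the basement membrane niche were abundant as well. Sparc, a matrix glycoprotein, was at 2325 CPM in the SD rat, 1802 CPM in the chimera rat and 2059 CPM in the chimera mouse satellite cells. Lama2, the laminin chain of the myofibre basement membrane, was at 831, 628 and 523 CPM, and Col4a1, a collagen IV chain, at 1358, 757 and 571 CPM. Itgb1, the integrin subunit that binds laminin with Itga7, was at 684, 520 and 480 CPM.

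Immediate early genes, which respond within minutes to stress and growth factors, were present in every population. Fos was at 2667, 2030 and 431 CPM, Egr1 at 1885, 1833 and 1439 CPM, and Jun at 1440, 1009 and 695 CPM in the SD rat, chimera rat and chimera mouse satellite cells. The median cell held 103, 85.8 and 40.0 UMIs of this list per 10000 UMIs, with upper quartiles of 196, 153 and 66.3, so the mouse cells lay lower and spread less than the rat cells.

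Genes that stood higher in the rat satellite cells than in the cells of their population with fewer than 2 of the 7 markers, 8553 in the SD rat and 7983 in the chimera, were read after their values had been seen. The strongest was Cpa1, which encodes the secreted digestive enzyme carboxypeptidase A1. Cpa1 was at 3285 CPM in SD rat satellite cells against 16.1 CPM in the cells of that rat with fewer than 2 markers, and at 4546 CPM against 16.0 CPM in the chimera rat cells. It was shared with the sister myogenic cells, at 2593 and 3663 CPM in the cycling and 770 and 1371 CPM in the Myog-positive cells of the SD rat and chimera rat. It was detected in 90.6% and 93.0% of the rat satellite cells. In the 29 mouse satellite cells only 1 UMI of Cpa1 was counted, or 5.39 CPM. Tagln, an actin-binding protein best known from smooth muscle, was at 2835 and 3323 CPM in the rat satellite cells and at 124 CPM in the mouse ones. Ifi27l2b, an interferon-inducible gene, was at 1578 and 1096 CPM in the rat cells, with no UMI in the mouse cells. Opcml, a neural adhesion protein, was at 499 and 552 CPM in the rat cells, also with no UMI in the mouse cells. In fibroblasts of the chimera it was at 120 CPM in mouse and 96.8 CPM in rat cells.

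Other genes that were high in rat satellite cells also appeared in the mouse cells. Erfe, the hormone erythroferrone, was at 181, 194 and 350 CPM in the SD rat, chimera rat and chimera mouse satellite cells. Rapsn, which clusters acetylcholine receptors, was at 110, 127 and 146 CPM. Pdlim4, an actin-associated LIM protein, was at 864, 1006 and 733 CPM. Vgll2, a muscle cofactor of TEAD factors, was at 168, 230 and 59.3 CPM. Between species a 3′ tag depends on how well each annotation covers the 3′ end of the gene, so a level in one species set against the other cannot be told apart from that coverage.

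The promoters of a marker of the rule and of the leading rat gene are shown so that the sequence behind these levels can be read. They come from RefSeq on rat build GRCr8 and run from 250 bases before to 50 bases after the gene's start, on the gene's strand, at chr5:157381072-157381371 on the minus strand for Pax7 and chr4:60224551-60224850 on the plus strand for Cpa1. Capitals mark CAGCTG, an E-box that Myod1 and Myog can bind. The letters occur nowhere in the Pax7 window and once in the Cpa1 window, starting at position -220 from the start.
Pax7: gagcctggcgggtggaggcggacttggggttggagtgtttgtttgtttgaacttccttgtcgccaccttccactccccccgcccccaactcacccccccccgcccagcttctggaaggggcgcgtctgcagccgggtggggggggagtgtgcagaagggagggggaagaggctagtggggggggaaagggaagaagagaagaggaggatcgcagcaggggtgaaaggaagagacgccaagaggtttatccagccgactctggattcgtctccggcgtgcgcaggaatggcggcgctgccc
Cpa1: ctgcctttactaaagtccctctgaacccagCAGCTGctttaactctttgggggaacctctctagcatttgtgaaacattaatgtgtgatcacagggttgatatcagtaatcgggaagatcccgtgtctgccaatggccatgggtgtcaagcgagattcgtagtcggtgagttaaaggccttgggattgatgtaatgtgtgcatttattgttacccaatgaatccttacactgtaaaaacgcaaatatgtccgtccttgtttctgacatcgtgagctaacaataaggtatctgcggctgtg

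Transcripts of mature myofibres appeared in satellite cells of all 3 populations. The myofibre list, which holds genes of the sarcomere and its energy supply such as Acta1 and Ckm, summed to 31119 CPM in the SD rat, 20312 CPM in the chimera rat and 12729 CPM in the chimera mouse satellite cells. These sums came mostly from few cells. The median satellite cell held 1.29%, 0.538% and 0.651% of its UMIs on the list, but the highest cells reached 45.7%, 42.6% and 37.1%. More than 10% was found in 16 SD rat, 7 chimera rat and 1 chimera mouse satellite cells. Endothelial cells, which make no sarcomeres, had medians of 1.77%, 0.695% and 0.637% in the same populations. The median satellite cell lay below this level in both rats and close to it in the mouse cells. Fibroblasts, which make no sarcomeres either, had medians of 0.602%, 0.294% and 0.265%. The median satellite cell lay above the fibroblast level in all 3 populations. Of the 16 SD rat cells above 10%, 13 had exactly 2 of the 7 markers and 4 had Pax7. The source of these transcripts was not tested.

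**Figure D2:**
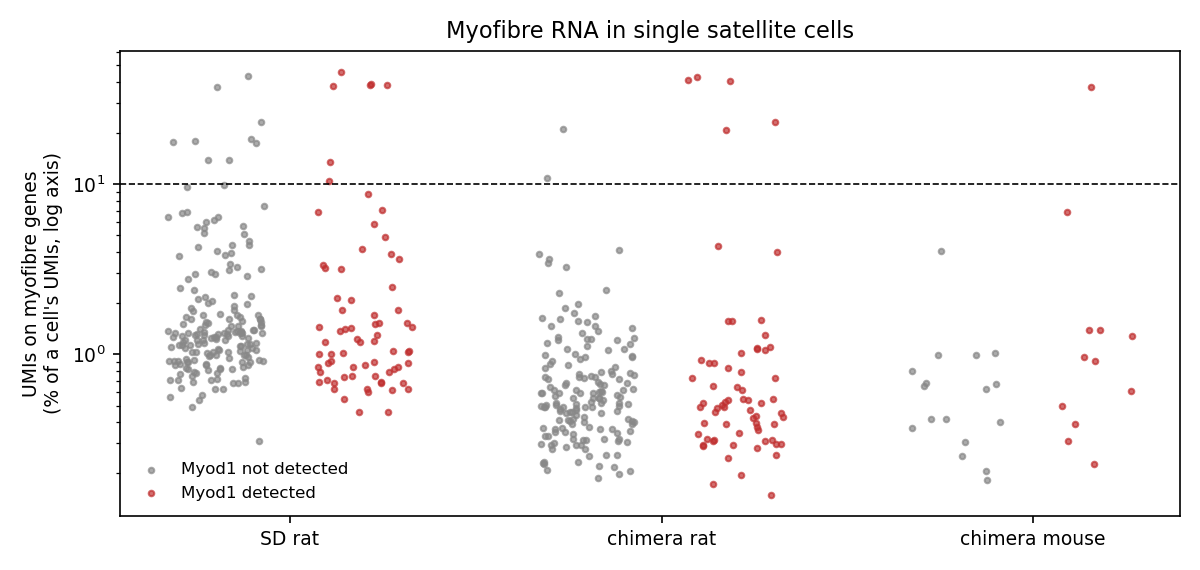
Share of each satellite cell's UMIs on the myofibre gene list (percent, log axis), with 1 point per cell, for cells with and without a Myod1 UMI in the 3 populations. The dashed line marks 10%, above which lie 16 SD rat, 7 chimera rat and 1 chimera mouse cells.

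Markers of other cell types were low but not absent. The 12 fibroblast genes summed to 4467, 2645 and 1326 CPM in SD rat, chimera rat and chimera mouse satellite cells, with 1, 1 and 3 of them at 0. The immune list summed to 340, 78.1 and 86.2 CPM. All 8 Schwann cell genes were at 0 in the mouse satellite cells, and their sum was 56.1 CPM in the SD rat and 38.3 CPM in the chimera rat cells. The mural list reached 3076, 3522 and 1277 CPM, of which Tagln alone made up 2835, 3323 and 124 CPM. The part of these transcripts in the differences below was not tested.

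The first comparison asked whether rat satellite cells differed between a chimeric and a normal host. Of 5849 genes detected in at least 10% of cells of at least 1 of the populations, 67 lay 2-fold or more higher in the chimera rat cells (1.15%) and 52 lay 2-fold or more lower (0.889%). The median log2 difference was -0.01, computed on CPM plus 10 as all log2 values here, while the interval printed beside a difference is that of the ratio of counts without the added 10. None of the 7 rule markers, 16 other satellite cell genes, 15 immediate early genes, 18 basement membrane genes or 7 positional genes tested was past 2-fold. Pax7 differed by 0.12 on the log2 scale, Myf5 by 0.15, Asb5 by 0.24 and Megf10 by 0.52, while Myod1 differed by -0.29 and Cdh15 by -0.35. The median difference was 0.12 over the rule markers, 0.01 over the other satellite cell genes, -0.23 over the immediate early genes and -0.28 over the basement membrane genes. The rule markers chose the cells in both libraries, so their levels are a description.

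For Pax7 the direction of the difference depended on which counts were used. In the chimera rat satellite cells, 146 Pax7 UMIs were on the rat gene and 137 on the mouse gene, a mouse-gene share of 48.4% (42.5 to 54.4). On rat counts alone the Pax7 difference from the SD rat was -0.68. For Des the mouse-gene share was 55.2% and the difference on rat counts alone was -0.87. Msc had 27.7% on the mouse gene, whereas Myf5 had 1.35%, and Myod1, Cdh15 and Fgfr4 had none. Whether a mouse-gene count in these cells came from a rat or a mouse transcript was not tested.

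The genes that stood highest in the chimera rat cells included Lars2, Camk1d, Cmss1, Gphn, Hmgb1, Nmnat2, Rpl35a, Otoa and Rplp2. Their counts lay largely on the mouse genes. Camk1d, a calcium-dependent kinase, was at 938 CPM in the chimera rat and 11.9 CPM in the SD rat cells, with 1283 of its chimera UMIs on the mouse gene and 15 on the rat gene. Cmss1, a ribosome biogenesis gene, was at 1831 against 60.8 CPM, with 2456 UMIs on the mouse gene and 76 on the rat gene. Over all 67 higher genes the median mouse-gene share was 85.8%, against 3.57% over all genes tested. When genes with over 10% on mouse genes were left out, 4554 genes remained, of which 5 lay 2-fold higher and 29 lower. The 5 were Zfp60, Mapk10, Med29, Pde1c and Pde3a.

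The 10 genes that stood lowest in the chimera rat cells were Hs6st3, Atp13a4, Glis1, Nell1, Mb, Hba-a2, Fabp3, Pde4dip, Adssl1 and Eif4g2. Hs6st3, a heparan sulphate sulphotransferase, was at 1421 CPM in the SD rat and 10.1 CPM in the chimera rat cells. Glis1, a zinc finger factor, was at 429 and 29.6 CPM. Its drop was not particular to satellite cells, at 178 and 10.5 CPM in endothelial cells and 202 and 9.77 CPM in fibroblasts. Among Myog-positive cells it was at 453 and 20.7 CPM. Of 51 lower genes with a chimera rat UMI, 45.1% had over 10% of UMIs on mouse genes, against 22.1% of all genes tested. Hs6st3, Nell1, Hba-a2 and Eif4g2 were among those over 10%. Atp13a4, a cation-transporting ATPase, was at 177 CPM in the SD rat and had no UMI in 229 chimera rat cells, where a count of 0 allows a share of cells with a UMI of up to 1.31%. Mb, Fabp3 and Adssl1 are genes of myofibres, and Mb, myoglobin, was at 338 and 57.1 CPM. Of 12 myofibre genes tested, Mb and the fast myosin Myh4, at 394 and 143 CPM, were 2-fold lower, with a list median of -0.65. The glycolytic enzyme Aldoa, at 25.3 and 62.9 CPM, was 2-fold higher. Over 10% of its UMIs in the chimera rat cells lay on the mouse gene. Of 14 differentiation and fusion genes, 4 were lower, among them Ttn with a difference of -2.63 and Tnnt1 with -2.81, although 1 SD rat cell held 187 of 614 Ttn UMIs and 73 of 115 Tnnt1 UMIs. When the satellite cells with over 10% myofibre UMIs were left out, an alternative chosen after the data were seen, 10 of 12 myofibre genes lay 2-fold lower in the chimera rat cells. The median share of UMIs on the myofibre list in endothelial cells also differed, at 1.77% in the SD rat and 0.695% in the chimera rat. How this relates to the difference in satellite cells was not tested.

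Of 17 quiescence and Notch genes tested, Col5a3 alone was past 2-fold, at 391 CPM in the SD rat and 179 CPM in the chimera rat cells, a difference of -1.09 (-1.36 to -0.91). Hes1 differed by -0.85 and Calcr by -0.97, both short of the mark. Dmd, which encodes dystrophin, was at 130 CPM in the SD rat and 73.7 CPM in the chimera rat cells, a difference of -0.74. When the cell with most Dmd UMIs was left out in each population, the difference was -0.35.

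The second comparison set the mouse satellite cells of the chimera against the rat satellite cells of the same library, which shared 1 host and 1 dissociation. It holds only 29 mouse cells, and 1154 of 7050 genes lay 2-fold higher (16.4%) and 874 lower (12.4%), with the median log2 difference at 0.14 and its quartiles at -0.49 and 0.71. These shares are the background for every list below. Species, the chimera's iPSC origin and the annotation of each genome cannot be told apart in this comparison. To place each difference, the same ratio was computed in the endothelial cells and fibroblasts of the chimera.

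Surface and adhesion genes of satellite cells were among those that stood higher in the mouse cells, with 6 of 18 satellite cell genes outside the rule past 2-fold higher, 1 lower and a list median of 0.79. Sdc4, a heparan sulphate coreceptor, was at 905 CPM in mouse and 182 CPM in rat satellite cells, a log2 difference of 2.25 (2.02 to 2.60). The Sdc4 ratio was -2.58 in endothelial cells and 1.69 in fibroblasts. Vcam1, an adhesion receptor for leukocytes and fusing myoblasts, was at 728 and 159 CPM, a difference of 2.13 (1.87 to 2.51), against 0.43 and 0.89 in endothelial cells and fibroblasts. Itga7, the laminin receptor subunit, was at 91.6 and 19.5 CPM, and Cxcr4, a chemokine receptor, at 64.7 and 5.78 CPM. Of the rule markers, Pax7 was higher by 1.19 (0.87 to 1.58) and Cdh15 was lower by -1.59 (-2.59 to -0.94). Pax3 was the 1 lower gene of the 18, at 5.39 and 24.6 CPM.

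Among 19 quiescence and Notch genes, 5 lay 2-fold higher in the mouse satellite cells and 2 lower, with a median of 0.53. Tenm4, a teneurin, was at 151 and 29.6 CPM, Chrdl2, a secreted BMP antagonist, at 162 and 31.1 CPM, and Tgfbr3, betaglycan, at 183 and 43.4 CPM in mouse and rat cells. The Tenm4 and Chrdl2 ratios were near 0 in the other cell types, at -0.15 and -0.42 in endothelial cells and -0.14 and -0.06 in fibroblasts, where both genes were low. The Tgfbr3 ratio was 1.86 in satellite cells, 1.43 in endothelial cells and 1.80 in fibroblasts. Notch3 was at 80.8 and 11.6 CPM. Jag1, a Notch ligand, was at 34.7 CPM in the rat cells and had no UMI in the 29 mouse cells, where a count of 0 allows a share of cells with a UMI of up to 10.3%. Col5a3 was at 80.8 and 179 CPM.

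Immediate early genes lay lower in the mouse satellite cells in 8 of 16 cases and higher in 2, with a median of -0.96. Btg2, an antiproliferative gene, was at 189 CPM in mouse and 2195 CPM in rat satellite cells, a difference of -3.47. Fosb was at 183 and 1268 CPM, Atf3, a stress-induced factor, at 146 and 822 CPM, and Ier3 at 91.6 and 607 CPM. Egr2 and Fosl2 stood the other way, at 102 and 18.1 CPM and at 86.2 and 28.2 CPM. Summed over the list, the levels were 5502 CPM in mouse and 12554 CPM in rat satellite cells. In endothelial cells of the same library the Btg2 ratio was -1.66 and the Fosb ratio -1.48, whereas Ier3 was at 0.44, and in fibroblasts Btg2 was at -2.04, Fosb at -0.19 and Ier3 at 0.13. The size of the gap between cell types was not tested.

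**Figure D3:**
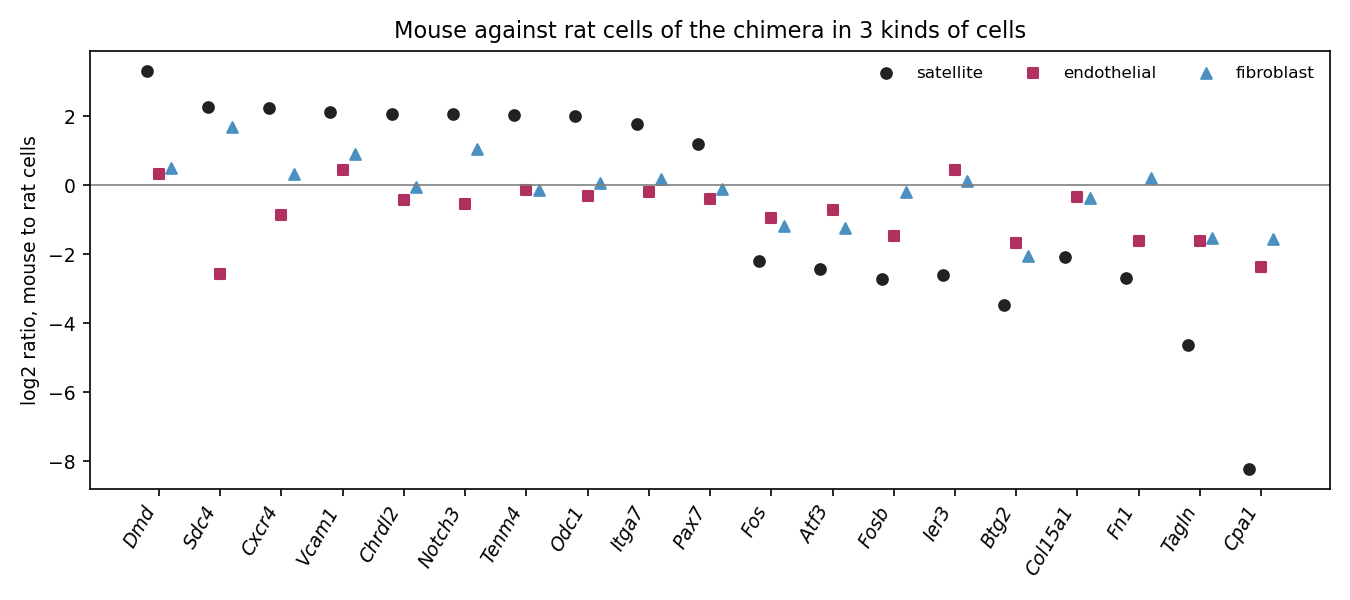
Log2 ratio of mouse over rat levels (CPM plus 10) within the chimera library for 19 genes, with 1 point each for satellite cells, endothelial cells and fibroblasts. Dmd (3.32 in satellite cells against 0.33 and 0.49) and Vcam1 (2.13 against 0.43 and 0.89) lie apart between cell types, while Tagln (-4.64, -1.62 and -1.54) and Btg2 (-3.47, -1.66 and -2.04) lie on 1 side of 0 in all 3.

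Dmd was at 825 CPM in mouse satellite cells and 73.7 CPM in rat satellite cells of the chimera, and was detected in 79.3% and 27.9% of cells, or 60.7% and 9.73% after thinning. The difference was 3.32 (3.11 to 3.86). Of the 153 Dmd UMIs in mouse cells, 28.1% came from 1 cell, and the difference was 2.92 when the top cell of each population was left out. In endothelial cells the ratio was 0.33 and in fibroblasts 0.49. The gap was shared with the sister myogenic cells. Dmd was at 1054 CPM in the 10 mouse and 45.7 CPM in the rat Myog-positive cells of the chimera. In its 3 mouse and 58 rat cycling cells it was at 808 and 68.6 CPM. A single cell held 75.9% of the Dmd UMIs of the mouse Myog-positive cells. The edited part of the mouse allele was not read here, since 3′ tags do not identify the edit, so these counts do not check the correction. Utrn, the autosomal relative of dystrophin, was at 275 and 99.8 CPM. Sgca, a sarcoglycan, stood lower at 10.8 and 80.2 CPM, and Dtna, dystrobrevin, was at 33.3 CPM in rat cells with no UMI in mouse cells. Of 9 genes of the complex tested, 2 were higher and 3 lower.

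Matrix genes stood mostly lower in the mouse satellite cells, with 9 of 18 basement membrane genes past 2-fold lower, 1 higher and a list median of -0.92. Col15a1, which anchors basement membranes to the stroma, was at 194 and 860 CPM. Fn1, fibronectin, was at 26.9 and 228 CPM, and Lamb1, a laminin chain, at 10.8 and 83.1 CPM. The Col15a1 and Lamb1 ratios were -2.09 and -2.16 in satellite cells, against -0.35 and -0.13 in endothelial cells and -0.37 and 0.07 in fibroblasts. Of 4 antigen presentation genes, 3 were lower, B2m at 420 and 1712 CPM, Tap1 at 5.39 and 75.9 CPM, and Psmb9 with no UMI against 57.8 CPM.

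Genes of later myogenic steps were also read, in cells that held at most 1 Myog UMI by the rule. Chrna1, the acetylcholine receptor alpha subunit, was at 226 CPM in mouse and 14.5 CPM in rat satellite cells, and was detected in 62.1% and 6.55% of cells, or 32.1% and 0.885% after thinning. Mef2d, a myocyte enhancer factor, was at 119 and 15.9 CPM. Its relatives Mef2a and Mef2c stood the other way, with differences of -1.07 and -1.58. Of 15 differentiation and fusion genes, 2 lay 2-fold higher and 5 lower, with a median of -0.74. Among 9 positional genes, 3 were higher, Eya1 at 113 and 35.4 CPM, Eya4 at 140 and 60.7 CPM, and Hoxc9 at 53.9 and 19.5 CPM. Among 12 imprinted genes 1 was higher and 4 lower, with Igf2, a fetal growth factor, at 159 CPM in rat cells and no UMI in mouse cells.

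The 10 genes that stood highest in the mouse cells were Rpl37, Rpl35a, Slc7a11, Arl4d, Ctsz, Ftl1, Cd81, Ier3ip1, Selenok and Gng5. Slc7a11, the cystine transporter, was at 420 CPM in mouse and 0.723 CPM in rat satellite cells, with ratios of 0.09 in endothelial cells and 1.42 in fibroblasts. The Rpl37 ratio of 7.81 in satellite cells stood beside 5.84 in endothelial cells and 6.61 in fibroblasts, and Cd81, a tetraspanin, beside ratios of 5.67 and 6.05. The 10 lowest were Cpa1, Ifi27l2b, Zc3h10, Kxd1, Colec11, Opcml, Ikzf4, Rusc1, Man2b2 and Timp1. Zc3h10 was at 156 and 12844 CPM, and its ratio of -6.27 was matched by -4.55 and -5.10 in the other cell types. Timp1, an inhibitor of metalloproteases, was at 86.2 and 3254 CPM, with ratios of -3.27 in endothelial cells and -0.90 in fibroblasts. Of the 10 highest genes 8, and of the 10 lowest also 8, were past 2-fold on the same side in both endothelial cells and fibroblasts.

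The place of these cells in the myogenic lineage was described by counting the cycling and Myog-positive cells that met the same marker rule. Satellite cells were 71.8% (66.8 to 76.4) of 354 myogenic cells in the SD rat, 60.3% (55.1 to 65.2) of 380 in the chimera rat and 69.0% (52.9 to 82.4) of 42 in the chimera mouse population. Myog-positive cells, with at least 2 Myog UMIs, took 11.9% (8.69 to 15.7), 24.5% (20.2 to 29.1) and 23.8% (12.1 to 39.5). Cycling cells took 16.4% (12.7 to 20.7), 15.3% (11.8 to 19.3) and 7.14% (1.50 to 19.5). These intervals cover counting error over the cells of 1 animal, so the shares are values of these libraries and not a tested difference between hosts. Median depth was 12475, 11675 and 17248.5 UMIs in Myog-positive cells, more than in the satellite cells of the same populations.

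**Figure D4:**
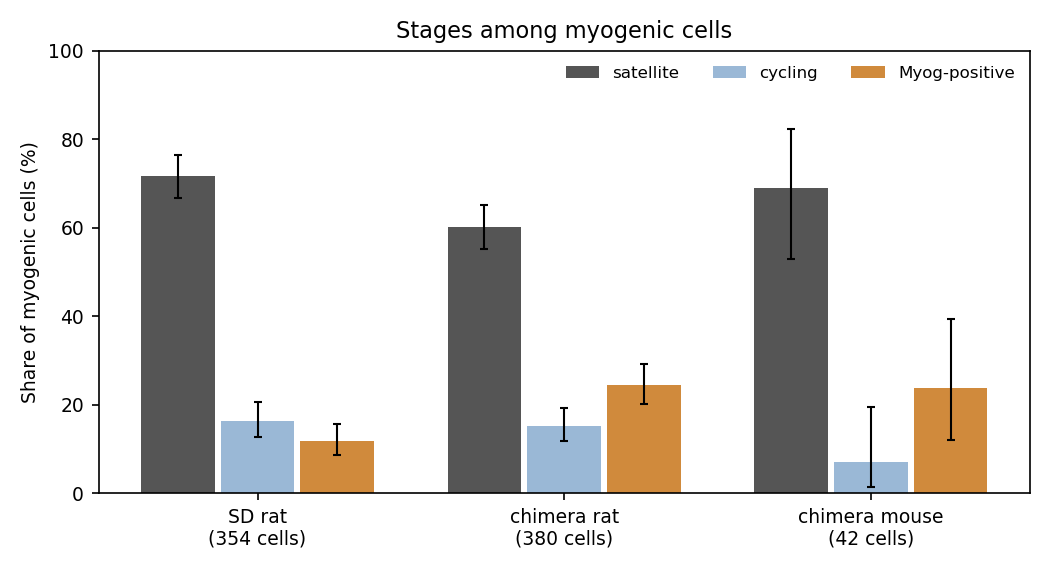
Share of myogenic cells (percent, axis from 0) that were satellite, cycling or Myog-positive in the 3 populations, with 95% Clopper-Pearson intervals over cells as bars. Satellite cells are the largest class in each population, at 71.8%, 60.3% and 69.0%.

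Set against the Myog-positive cells of the same population, satellite cells differed at many genes. In the SD rat 475 of 6703 genes (7.09%) lay 2-fold higher in Myog-positive cells and 706 (10.5%) lower. In the chimera rat these were 311 of 6793 (4.58%) and 507 (7.46%). The libraries shared 238 of the higher genes, which is 50.1% of the SD rat list and 76.5% of the chimera rat list, and 355 of the lower genes, 50.3% and 70.0%. Myog chose the cells and is not a finding here. Only 10 mouse cells were Myog-positive, so their levels are given for single genes alone.

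Some stem cell genes were among those that were higher in satellite cells. Pax7 was at 188 CPM in satellite and 6.60 CPM in Myog-positive cells of the SD rat, at 205 and 26.1 CPM in the chimera rat and at 480 and 111 CPM in the chimera mouse cells. Myf5 was at 193 and 11.0 CPM in the SD rat and at 215 and 34.8 CPM in the chimera rat. Outside the rule, 6 of 15 satellite cell genes were 2-fold lower in Myog-positive cells of each rat population, among them Chodl, with 264 and 13.2 CPM in the SD rat, and Vcam1, with 162 and 11.0 CPM. Of quiescence and Notch genes, 10 of 18 in the SD rat and 9 of 17 in the chimera rat were lower, with Heyl at 65.6 and 2.20 CPM and at 57.1 and 4.35 CPM. Of basement membrane genes, 14 of 17 and 15 of 18 were lower and none was higher, with medians of -2.03 and -1.54, against 0.09 and 0.01 over all genes tested. Col6a1, a collagen VI chain, was at 393 and 19.8 CPM in the SD rat and at 278 and 42.5 CPM in the chimera rat.

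Immediate early genes followed the same pattern in part, with 8 of 15 lower in Myog-positive cells in the SD rat and 5 of 16 in the chimera rat. Fosb was at 1763 and 352 CPM in the SD rat and at 1268 and 423 CPM in the chimera rat. The lowest genes in Myog-positive cells, read after their values were seen, included Nppc, the C-type natriuretic peptide, at 217 CPM in satellite cells of the SD rat with no UMI in its 42 Myog-positive cells, and at 689 and 26.1 CPM in the chimera rat. Lpl, lipoprotein lipase, was at 1970 and 108 CPM and at 1665 and 96.9 CPM. Dpt, dermatopontin, was at 903 and 2.20 CPM and at 637 and 46.8 CPM, and it is also a gene of fibroblasts, where it reached 2044 and 2018 CPM.

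Not every marker was highest in the satellite cells. Megf10 was at 51.4 CPM in satellite and 200.1 CPM in Myog-positive cells of the SD rat, and at 78.1 and 174 CPM in the chimera rat. Asb5 was at 299 and 820 CPM and at 354 and 727 CPM. Met stood at 138 and 290 CPM and at 119 and 262 CPM. Myod1 was nearly level, at 128 and 128 CPM in the SD rat and 103 and 126 CPM in the chimera rat.

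The genes that stood highest in the Myog-positive cells of both libraries included genes of fusion and of the sarcomere. Mymk, the membrane protein myomaker that starts fusion, had no UMI in 254 SD rat satellite cells, where a count of 0 allows a share of cells with a UMI of up to 1.18%, and was at 444 CPM in Myog-positive cells. In the chimera rat it was at 2.89 and 346 CPM. Mymx, its partner myomixer, had no UMI in SD rat satellite cells and was at 213 CPM in Myog-positive cells, with 0.723 and 288 CPM in the chimera rat. Actc1, cardiac actin, was at 25.3 and 2375 CPM and at 20.2 and 2732 CPM. Klhl40, a stabiliser of thin filaments, was at 5.53 and 735 CPM and at 7.23 and 588 CPM. Cdkn1c, the cell cycle inhibitor p57, was at 239 and 13027 CPM in the SD rat, 240 and 7164 CPM in the chimera rat and 350 and 8365 CPM in the chimera mouse cells. Of differentiation and fusion genes, 12 of 23 in the SD rat and 13 of 21 in the chimera rat were 2-fold higher in Myog-positive cells, with medians of 1.39 and 1.60. On the myofibre list 10 of 12 genes in the SD rat and 4 of 12 in the chimera rat were 2-fold lower in Myog-positive cells, but without the satellite cells above 10% myofibre UMIs only 1 of 11 in the SD rat and none of 12 in the chimera rat was lower, and the chimera rat median was then 0.79. Mylpf and Tcap turned to 0.75 and 0.55 in the chimera rat in that setting.

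**Figure D5:**
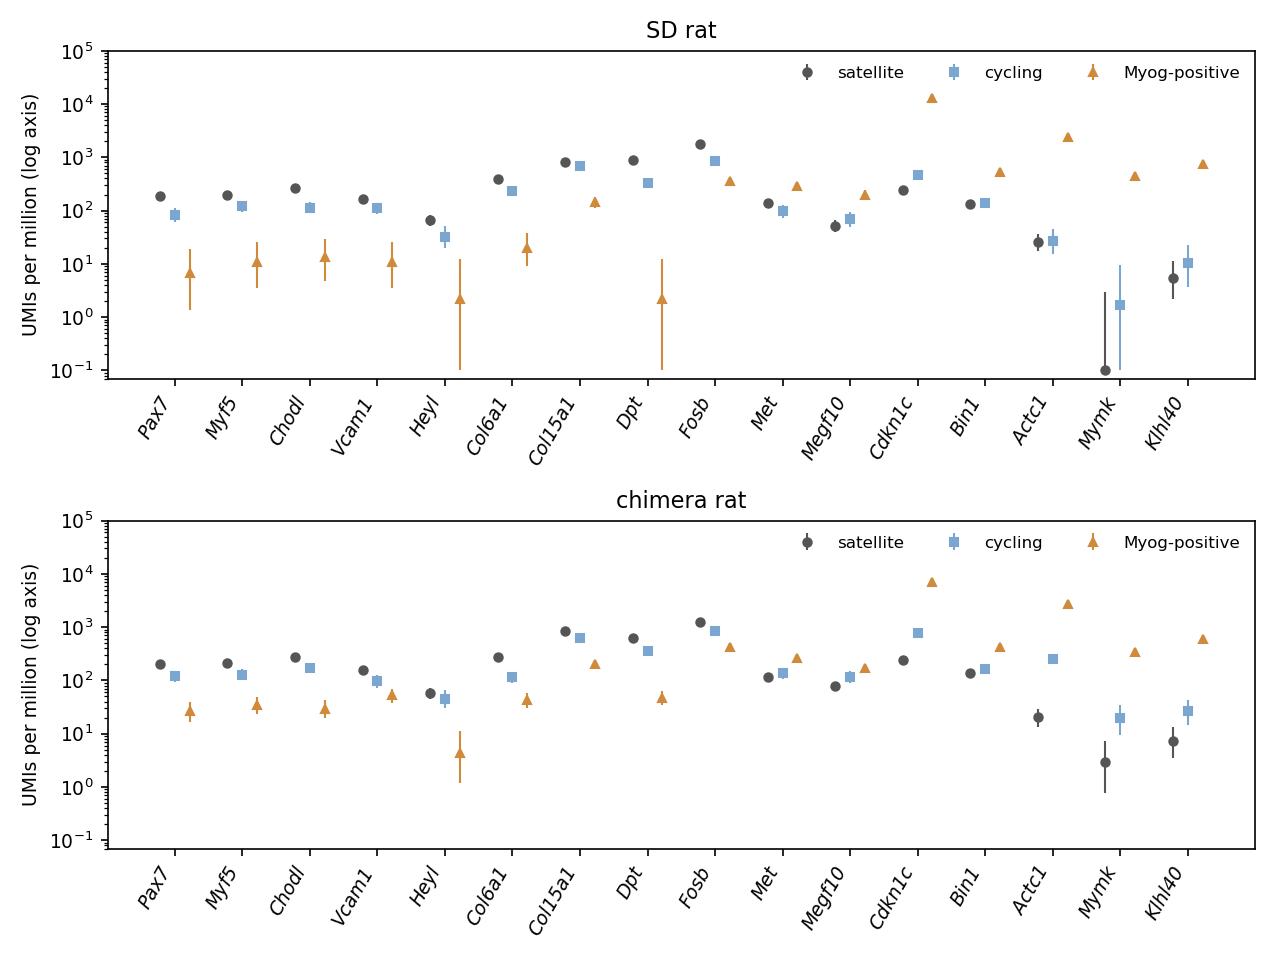
Levels (CPM, log axis) of 16 genes in satellite, cycling and Myog-positive cells of the SD rat (top) and chimera rat (bottom), with 95% Poisson intervals as bars and values below 0.1 CPM, such as Mymk in SD rat satellite cells, drawn at 0.1. Pax7, Chodl and Col6a1 step down towards the Myog-positive cells, while Cdkn1c reaches 13027 and 7164 CPM and Actc1 2375 and 2732 CPM there.

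Promoters of a pair of these genes are shown with the same E-box in capitals. They are also RefSeq windows on GRCr8, at chr8:130318543-130318842 on the plus strand for Klhl40 and, for the first of 3 listed starts, at chr9:22894274-22894573 on the plus strand for Mymx. The motif starts at -94 and -8 in the Klhl40 window and at -41 and -5 in the Mymx window.
Klhl40: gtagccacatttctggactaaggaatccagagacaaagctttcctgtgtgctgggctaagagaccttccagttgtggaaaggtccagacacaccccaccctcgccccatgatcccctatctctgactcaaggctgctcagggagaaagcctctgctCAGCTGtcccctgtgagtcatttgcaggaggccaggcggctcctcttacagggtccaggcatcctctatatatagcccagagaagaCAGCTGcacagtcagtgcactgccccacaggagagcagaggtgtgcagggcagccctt
Mymx: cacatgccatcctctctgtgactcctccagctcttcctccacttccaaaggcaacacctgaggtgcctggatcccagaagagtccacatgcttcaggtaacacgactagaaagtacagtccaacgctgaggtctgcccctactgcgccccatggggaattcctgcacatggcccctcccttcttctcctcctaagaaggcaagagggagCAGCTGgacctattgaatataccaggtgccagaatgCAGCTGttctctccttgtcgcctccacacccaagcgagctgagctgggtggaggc

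Across genes, CAGCTG, which reads the same on both strands, was found in 46 of the 198 matched promoters of genes higher in Myog-positive cells in both libraries, or 23.2% (17.5 to 29.7). It was found in 54 of 264 promoters of the genes higher in satellite cells in both, or 20.5% (15.8 to 25.8). Of all genes tested in both, 810 of 5203 matched promoters held it, 15.6% (14.6 to 16.6), and of all 33469 rat promoters 15.1%. A match describes the letters only and is no measurement of binding.

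Cycling cells had fewer genes 2-fold below the satellite cells than the Myog-positive cells did. In the SD rat 511 of 7329 genes (6.97%) lay 2-fold higher in cycling cells and 208 (2.84%) lower, and in the chimera rat 479 of 7418 (6.46%) and 168 (2.26%). Of the 7 rule markers, Pax7 was 2-fold lower in the SD rat, at 188 CPM in satellite and 83.4 CPM in cycling cells, and Asb5 in the chimera rat, at 354 and 164 CPM. Beyond the 5 mitotic genes of the rule, 13 of 16 cell cycle genes in the SD rat and all 16 in the chimera rat were 2-fold higher in cycling cells, such as Cenpf, a kinetochore protein, at 21.3 and 1027 CPM in the SD rat and 20.2 and 1152 CPM in the chimera rat. These genes move with the ones that chose the cells, so their count is a description.

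Genes that were higher in non-cycling satellite cells than in cycling cells of both libraries, read after their values were seen, included secreted proteins. Igfbp5, a binding protein of insulin-like growth factors, was at 279 and 22.1 CPM in satellite and cycling cells of the SD rat and at 178 and 12.3 CPM in the chimera rat. The chemokine Cxcl1 was at 3790 and 839 CPM and at 3467 and 1096 CPM. Timp1 was at 3185 and 691 CPM and at 3254 and 1126 CPM. Chrdl2 was at 41.9 and 1.70 CPM in the SD rat and at 31.1 and 8.80 CPM in the chimera rat. Of the quiescence and Notch list, 3 of 19 genes in the SD rat and 1 of 18 in the chimera rat were 2-fold higher in the non-cycling cells.

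Within the satellite cells, those with a Myod1 UMI numbered 71 of 254 in the SD rat and 67 of 229 in the chimera rat. They were deeper, with medians of 5770 and 6444 UMIs on the shared symbols, against 4619 and 5511.5 in the cells without. Myod1 is part of the marker rule, so a cell without it needed 2 other markers, and this split is a description. In the SD rat 38 of 5578 genes (0.681%) lay 2-fold higher in the Myod1-positive cells and 136 (2.44%) lower, and in the chimera rat 81 of 6159 (1.32%) and 232 (3.77%). The libraries shared 2 of the higher genes, Myod1 itself among them. Riok2, a ribosome assembly kinase, fell just short of the mark in the SD rat, at 0.999, and passed it in the chimera rat, at 1.10. They shared 29 of the lower ones, 21.3% of the SD rat list and 12.5% of the chimera rat list. Most genes past 2-fold were thus not shared between the libraries.

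Pax7 differed by -0.80 and -1.09 between Myod1-positive and Myod1-negative cells of the SD rat and chimera rat. The rule itself favours this direction, because a Myod1-negative cell needed 2 of the other markers, to which Pax7 belongs. Outside the rule, Tenm4 differed by -1.33 and -1.36 and Chrdl2 by -1.33 and -1.43 in the same comparison. Cdkn1c stood the other way, by 2.18 and 0.98. Myofibre transcripts moved with the split: the list summed to 43964 CPM in Myod1-positive and 25406 CPM in Myod1-negative cells of the SD rat, and to 45965 and 8367 CPM in the chimera rat. Without the cells above 10% myofibre UMIs, 58 genes were higher and 124 lower in the SD rat and 42 and 171 in the chimera rat, no myofibre gene was past 2-fold, and the shared higher genes were Cdkn1c, Myod1 and Riok2.

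The reporter carried by the iPSCs gave a count outside the shared gene set. The chimera reference held a row for EGFP, which collected 9 UMIs in the whole library. Of these, 5 lay in 5 of the 29 mouse satellite cells, and all 5 cells had Pax7. Pax7 was a marker of the rule and was found in all but 7 of the 29 cells, so this overlap shows little. Another 3 lay in 1 cycling mouse cell and 1 in a barcode of mixed species. No EGFP UMI was found in 949 mouse endothelial cells, where a count of 0 allows a share of cells with a UMI of up to 0.316%, in 107 mouse fibroblasts or in the 8477 rat cells of the chimera. EGFP RNA was thus counted in myogenic mouse barcodes and 1 mixed barcode, at about 1 UMI per positive satellite cell.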

How the data were processed

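Single-cell RNA was measured in 2 libraries, 1 of SD rat muscle and 1 of rat-mouse chimera muscle. The deposited matrices hold UMI counts per gene and barcode. According to the labels the authors ran Cell Ranger 7.1.0, and the genome builds listed are mRatBN7.2 and GRCm39. The SD rat matrix holds 23373 rat genes and the chimera matrix 23373 rat genes, 25906 mouse genes and an EGFP row. The counts were not normalised before deposit.

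Barcodes with at least 500 UMIs, at least 200 genes and at most 20% mitochondrial UMIs were kept. Rat and mouse counts of a symbol were added, and sums over the cells of a population were scaled to CPM over 16235 shared symbols. Differences are log2 ratios of CPM plus 10, for genes detected in at least 10% of cells of at least 1 population, and 2-fold is the mark used. With 1 library per group no test was run. Intervals are exact Poisson, conditional binomial or Clopper-Pearson intervals at 95%. The limits given for a count of 0 are approximate and lie below the Clopper-Pearson upper bounds, for example 10.3% against 11.9% for 29 cells. Scrublet in scanpy 1.11.5 (expected rate 0.08) marked 323 chimera and 165 SD rat barcodes as doublets, which were kept in the main values and left out in an alternative. Cells were thinned to 2000 UMIs to compare shares of cells. Python 3.11.15, numpy 2.4.6, scipy 1.17.1 and pandas 2.3.3 were used, and the scripts were tested on simulated data.

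Companion cells met fixed rules: Myog-positive cells had at least 2 Myog UMIs, cycling cells at least 2 of the 5 mitotic genes, endothelial cells Pecam1 and Cdh5, and fibroblasts Pdgfra and Dcn. The marker rule and the gene lists were chosen with earlier results of these data known. Named genes are every gene or examples of these lists, the 10 highest and lowest genes of the comparisons between populations, and the 10 highest of each comparison within a library that stood in the top 50 of both. Genes of which 1 cell held over 20% of the UMIs were kept out of these rankings. Some genes that met this rule are not reported here. Genes outside this rule are named in the text as read after their values were seen. Promoters were RefSeq windows matched by symbol.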

Additional observations from a re-analysis of the deposited data

Results flagged for a closer look

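EGFP, the reporter's coding sequence, lay outside the genes compared, and its counts stood above 0, the count in the rat cells, which lack the reporter. It gave 5 UMIs in 5 of 29 mouse satellite cells (95% Poisson interval of the count 1.62 to 11.7), against 0 UMIs in the 229 rat satellite cells of the chimera and 0 in its 949 mouse endothelial cells. All 5 cells also held Pax7 UMIs, but Pax7 was a marker of the rule and was missing from only 7 of the 29 cells. The count is small, and 24 mouse satellite cells had no EGFP UMI.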

How the results depend on the processing

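Of 19 shares and counts of genes, recomputed under the alternatives, 139 values stayed close to the main one and 38 moved. Requiring 3 markers gave shares of 1.96% in the SD rat and 2.03% in the chimera rat. Thinned cells gave 1.85% and 1.73%, and myogenic cells as the denominator 71.8% and 60.3%. Species limits of 10% and 90% gave 3.44% in the chimera rat, a mouse share of 20.3% and 152 genes lower in the chimera rat than the SD rat. With a pseudocount of 1 CPM the genes higher and lower were 134 and 95 for the chimera rat against the SD rat. In the same setting they were 794 higher (SD rat) and 556 and 803 (chimera rat) for Myog-positive cells, 824 and 358 and then 847 and 326 for cycling cells, and 156 and 260 and then 200 and 467 for Myod1-positive cells. Without a detection filter the lower genes were 105 for the chimera rat against the SD rat, 1061 for Myog-positive and 332 for cycling cells of the SD rat, and Myod1-positive cells of the SD rat had 86 and 313. Rat counts alone gave 9 higher and 85 lower genes in the chimera rat, and leaving out genes with over 10% mouse-gene counts gave 5 and 29. Leaving out the top cell of each gene gave 734 and 1376 genes for mouse against rat, and 207 lower genes for Myod1-positive cells of the SD rat. For Myod1-positive cells, 3 markers gave 100 higher genes in the SD rat, size factors gave 148 lower in the chimera rat, and leaving out myofibre-high cells gave 58 and 42 higher. The cause of these shifts was not tested beyond the construction of each alternative.

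For 879 values of named genes, recomputed in the same way, 7651 recomputed values stayed close to the main one, 601 moved and 18 no longer had the main sign, Gphn and Otoa by reaching 0. On rat counts alone, chimera rat against SD rat, these were Camk1d at -0.012, Cmss1 at -0.035, Gphn at 0.00, Hmgb1 at -0.11, Otoa at 0.00 and Rplp2 at -0.43. With 3 markers they were Neb at 0.23 in that comparison, Acta1 at 0.031 in cycling and Tnnc1 at 0.27 in Myod1-positive cells of the SD rat. Without myofibre-high cells they were Acta1 at 0.046 in cycling cells of the SD rat, Mylpf at 0.75 and Tcap at 0.55 in Myog-positive cells of the chimera rat, and Mef2c at -0.18, Acta1 at -0.084, Mylpf at -0.16, Ckm at -0.19, Tnnt3 at -0.10 and Tcap at -0.18 in its Myod1-positive cells.

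The alternatives without myofibre-high cells and without genes high on mouse rows, and the counts of lower genes within libraries, were chosen after seeing the data. No paired analysis was possible because each group has 1 library. The 29 mouse cells hold few UMIs of any single gene, so a gene of low level there is known only within its counting interval.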

Other observations

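Genes of the Y chromosome were not named in the comparisons above, but they were not left out of them. Uty, for example, was detected in 25.3% of the chimera rat satellite cells and so met the detection filter. Eif2s3y had 102 UMIs in the 254 SD rat satellite cells and 135 in the 229 rat satellite cells of the chimera. Uty had 51 UMIs in the former, and 75 on the rat gene and 3 on the mouse gene in the latter. Kdm5d had 17 and 12 UMIs. Ddx3y had 0 UMIs in the SD rat cells and 2, both on the mouse gene, in the chimera rat cells. In the 29 mouse satellite cells none of the 4 genes had a UMI, and for Kdm5d and Ddx3y, which were low in the rat cells too, a count of 0 in so few cells shows little.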
